A study of Homo sapiens with 18 samples.

Results

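The genes described here are 40 genes that human cells use to pass from G2 through mitosis, measured in LX-2 cells. They were taken by symbol from a list of cyclins, mitotic kinases, spindle checkpoint and kinetochore proteins, spindle motors, cytokinesis proteins, regulators of the anaphase-promoting complex, chromosome proteins and the transcription factor FOXM1. All 40 symbols were among the 28278 rows of the deposited count table, and all 40 were among the 15353 genes with enough counts to be tested. LX-2 is an immortalised human hepatic stellate cell line, a culture model of the vitamin A storing pericyte of the liver that turns into a collagen-producing myofibroblast after injury. The study stimulated these cells with thrombin, the coagulation protease that also signals through protease-activated receptors. Poly(A)-enriched RNA was sequenced from 18 libraries in 6 groups of 3: thrombin at 1 U/mL for 4 h, for 24 h and for 48 h, and control cells kept in serum-free medium for 4 h, for 24 h and for 48 h. Every group, controls included, had been plated for 48 h and held in serum-free medium for 1 h before time 0. The libraries of each group carry the numbers 12, 13 and 14, and the labels do not say what these numbers stand for or whether the libraries came from separate cultures. The p-values below therefore speak only for the variation among these 3 libraries a group, and that variation may be technical.

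Entry into mitosis is driven by cyclin B and its kinase CDK1, which the CDC25 phosphatases switch on and WEE1 and PKMYT1 hold off. Polo-like and Aurora kinases then build the spindle, kinetochores attach chromosomes to it, and the checkpoint proteins of the BUB and MAD families delay anaphase until every chromosome is attached. The anaphase-promoting complex with CDC20 ends the delay by marking securin and cyclin B for destruction, and the central spindle and the contractile ring then separate the daughter cells. The RNAs of these genes accumulate together late in the cell cycle. In quiescent cells the DREAM complex represses many of them, and in cycling cells the MuvB core with B-MYB and FOXM1 activates them, through a promoter element called the cell cycle genes homology region and through CCAAT boxes bound by NF-Y. In the liver, proliferation is a feature of activated stellate cells.

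Levels are given in CPM (counts scaled to the library's total) after scaling by trimmed mean of M-values (TMM), and in every list of 3 values the libraries stand in the order 12, 13, 14. Means are given ± SD over the 3 libraries of a group. Fold changes are thrombin over control unless stated, on the log2 scale ± standard error, from the edgeR quasi-likelihood fit to all 18 libraries. A gene is said to have risen or fallen where the Benjamini-Hochberg adjusted p over the 15353 genes was under 0.05. Library totals were 14431044 to 23270601 counts and TMM factors 0.945 to 1.03. Of 12 stellate and mesenchymal markers 10 passed the filter on low counts, led by VIM at a mean of 3593 CPM and COL1A1 at 2274 CPM, whereas LRAT, which marks retinoid-storing stellate cells, had at most 6 counts in any library. Among markers of other liver cells, 2 of 8 hepatocyte, all 6 endothelial, 5 of 6 macrophage and leukocyte and 3 of 5 cholangiocyte and epithelial genes passed the filter. The hepatocyte gene TTR was at 0 in all libraries, and ALB had at most 2 counts, the macrophage gene CD163 at most 1 and EPCAM at most 3. The highest of each list were SERPINA1 at 4.96 CPM, VWF at 14.5 CPM, CD68 at 75.0 CPM and SOX9 at 169.8 CPM on average. In bulk RNA, more cells in G2 and mitosis and more of each RNA per cell cannot be told apart. By edgeR only 11 of the 15353 genes separated the group that carries the label thrombin 4 h from the one labelled control 24 h, fewer than any other pair of groups compared here except thrombin and control at 48 h, so the groups are named as labelled and each direction below rests on those labels. Counts of members that changed when the 6 libraries numbered 12 were left out are given with and without them.

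Promoters carrying the elements named above are shown for 4 members, because these elements are a known input of many G2/M genes. KIF23, ANLN and CCNB1 rose with thrombin at 24 h and PLK1 did not pass the test. By the letters searched, given below, KIF23 and PLK1 hold both kinds of element, ANLN the first kind alone and CCNB1 the second alone. Other spellings of the elements were not searched, so an element may be present where none is marked. Each sequence is the RefSeq promoter on GRCh38.p14, from 250 bases before to 50 bases after the annotated start, read 5′ to 3′ on the gene's strand, with TTTGAA or TTCGAA (searched on both strands, so also as TTCAAA) and CCAAT (also as ATTGG) in capitals. KIF23 lies at chr15:69414349-69448427 with its promoter at chr15:69414099-69414398 on the forward strand, ANLN at chr7:36389862-36453791 with its promoter at chr7:36389612-36389911 on the forward strand, PLK1 at chr16:23678889-23690367 with its promoter at chr16:23678639-23678938 on the forward strand, and CCNB1 at chr5:69167150-69178245 with its promoter at chr5:69166900-69167199 on the forward strand.
KIF23: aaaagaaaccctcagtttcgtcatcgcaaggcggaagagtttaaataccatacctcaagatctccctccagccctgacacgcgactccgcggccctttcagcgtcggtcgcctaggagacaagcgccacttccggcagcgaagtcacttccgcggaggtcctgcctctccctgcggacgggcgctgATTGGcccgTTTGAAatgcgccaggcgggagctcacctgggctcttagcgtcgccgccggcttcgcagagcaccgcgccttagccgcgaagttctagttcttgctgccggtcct
ANLN: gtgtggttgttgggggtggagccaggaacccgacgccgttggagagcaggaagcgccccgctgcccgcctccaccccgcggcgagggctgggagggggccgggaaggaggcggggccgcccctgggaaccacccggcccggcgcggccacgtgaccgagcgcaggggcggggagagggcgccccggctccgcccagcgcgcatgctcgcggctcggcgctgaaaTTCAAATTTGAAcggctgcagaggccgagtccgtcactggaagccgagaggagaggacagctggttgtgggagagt
PLK1: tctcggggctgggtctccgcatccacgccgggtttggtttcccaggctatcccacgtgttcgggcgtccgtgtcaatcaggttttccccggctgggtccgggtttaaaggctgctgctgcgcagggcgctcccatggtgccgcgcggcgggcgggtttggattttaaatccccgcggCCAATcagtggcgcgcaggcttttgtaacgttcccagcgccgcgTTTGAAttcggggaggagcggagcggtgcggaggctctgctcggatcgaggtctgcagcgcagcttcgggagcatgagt
CCNB1: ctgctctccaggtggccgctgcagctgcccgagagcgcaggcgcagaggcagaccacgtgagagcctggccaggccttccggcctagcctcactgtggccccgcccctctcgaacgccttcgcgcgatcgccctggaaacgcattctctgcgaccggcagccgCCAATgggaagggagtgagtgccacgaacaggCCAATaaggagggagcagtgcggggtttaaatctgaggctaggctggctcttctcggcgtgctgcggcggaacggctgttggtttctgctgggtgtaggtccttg
In KIF23 the TTTGAA began 55 bases and an ATTGG 64 bases before the start. ANLN held TTCAAA 26 bases and TTTGAA 20 bases before the start, directly next to each other, and no CCAAT. PLK1 held TTTGAA 29 bases and CCAAT 73 bases before the start. CCNB1 held 2 CCAAT, 87 and 55 bases before the start, and neither TTTGAA nor TTCGAA in this window.

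Across the members, 33 of 40 matched a promoter in the RefSeq table. AURKA, BUB3, TTK, TPX2, UBE2C, BIRC5 and FOXM1 did not. TTTGAA or TTCGAA was present in 24 of the 33 promoters (72.7%), against 11.4% of the 11609 promoters of tested genes and 16.6% of all 27305 promoters of the same length. CCAAT was present in 25 of 33 (75.8%), against 36.4% of the promoters of tested genes and 35.7% of all promoters. Of 16 members with a promoter that rose with thrombin at 24 h, 12 held TTTGAA or TTCGAA and 13 held CCAAT. Of 17 with a promoter that did not pass the test at 24 h, 12 held TTTGAA or TTCGAA and 12 held CCAAT, so the members that passed and those that did not carried these letters at similar counts. A match of letters is a description of the window and not a bound site.

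The 40 genes were expressed in all 18 libraries. Mean levels ran from 13.2 CPM for PTTG1 to 927 CPM for MKI67, and TOP2A at 898 CPM, CENPF at 464 CPM and TPX2 at 456 CPM followed. Per kilobase of the longest coding transcript in GENCODE v29, the order of levels changed: CCNB1 led at 172 CPM per kb, followed by TOP2A at 156 and TPX2 at 127, and KIF4A was last at 8.91. The low places of PTTG1 and KIF4A are uncertain. Their reads may be split with near-identical copies that have more counts in rows of their own (PTTG2 and PTTG3P, and KIF4B). Together the 40 genes took 7013 to 9302 CPM of a library, the highest in thrombin library 12 and the lowest in control library 12, both at 24 h. The members moved within a narrow range: the ratio of the highest to the lowest library was 1.25 for PRC1 and 1.91 for CENPE, which bound the other 38.

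Each library was summarised by the median, over the 40 members, of the log2 deviation from the member's mean over all libraries. This median averaged -0.010 ± 0.095 in thrombin 4 h and 0.10 ± 0.059 in control 4 h libraries, 0.075 ± 0.11 in thrombin 24 h and -0.17 ± 0.038 in control 24 h libraries, and -0.11 ± 0.073 in thrombin 48 h and 0.12 ± 0.041 in control 48 h libraries (SD, n = 3 each). By this mean, thrombin cells were highest at 24 h, although the thrombin libraries of 4 h and 24 h overlapped. Control cells were lowest at 24 h. The thrombin 24 h libraries spread most, with library 13 at -0.051 and libraries 12 and 14 at 0.16 and 0.12. The control 48 h group held the highest mean of 21 members, thrombin 4 h of 8, control 4 h of 7 and thrombin 24 h of 4. The control 24 h group held the lowest mean of 30 members, thrombin 48 h of 9 and thrombin 24 h of 1. Control library 12 at 24 h was the lowest of all 18 libraries for 15 members, and control library 13 at 48 h the highest for 9.

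**Figure D1:**
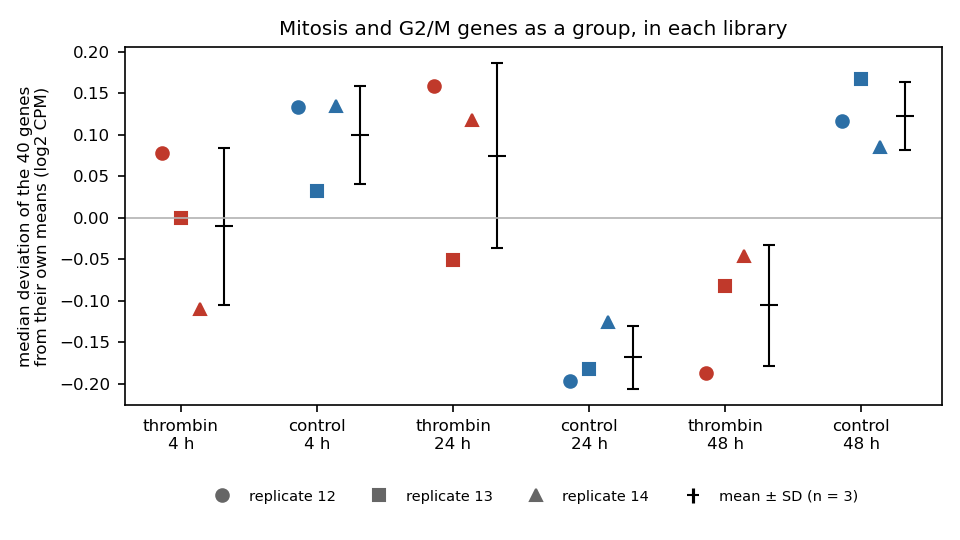
Median log2 deviation of the 40 members from their mean over all libraries (vertical axis) in each library, by time, with thrombin left of control; points are libraries and bars the group mean and SD (n = 3). The 3 thrombin libraries at 24 h lie at 0.16, -0.051 and 0.12, above the 3 control libraries at -0.20, -0.18 and -0.13.

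**Figure D2:**
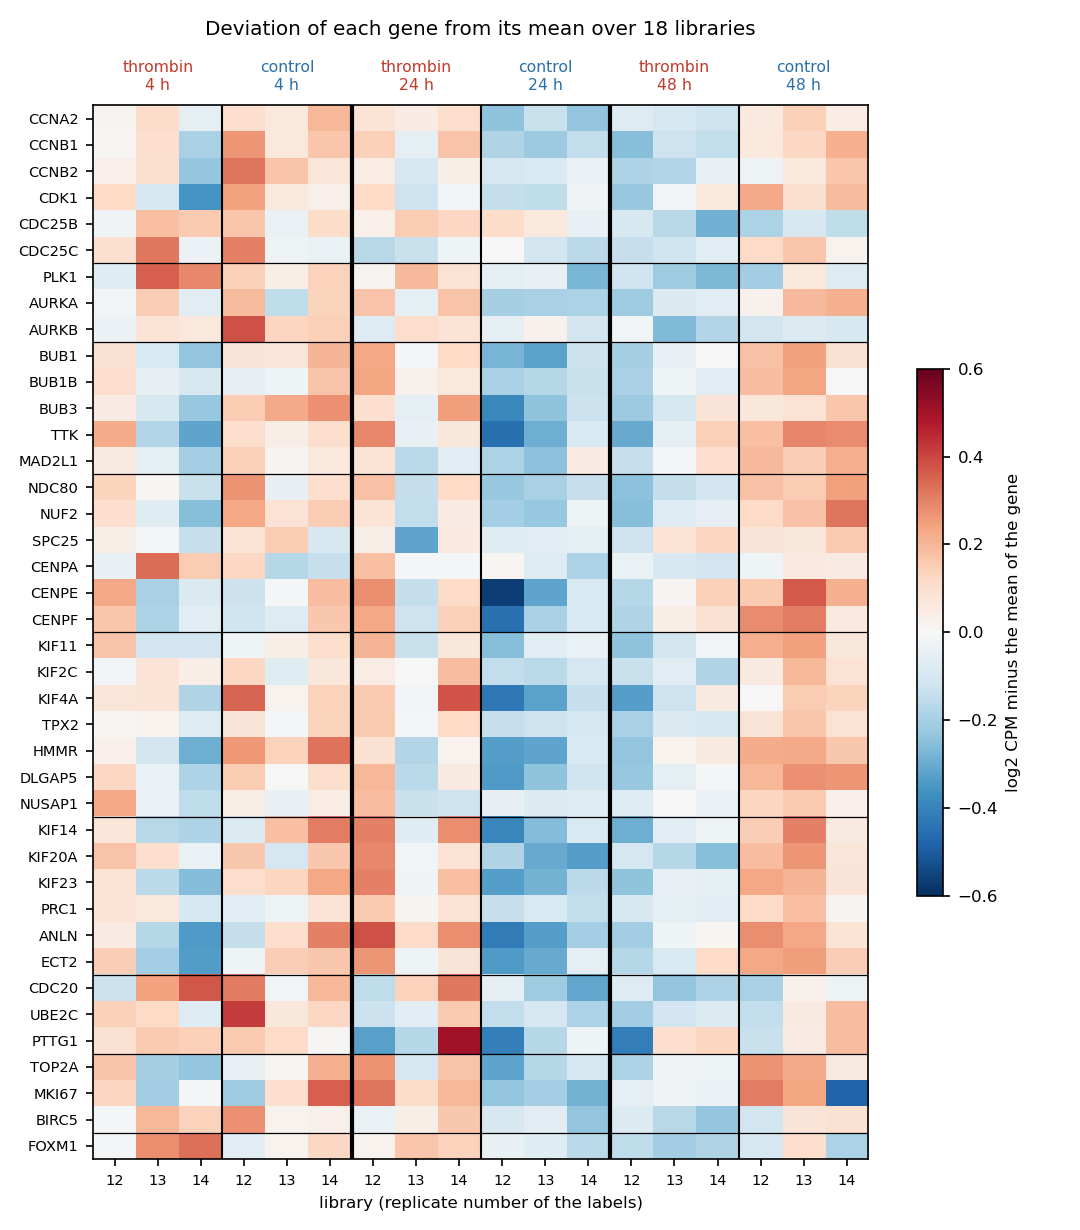
Log2 deviation of each member (rows, grouped by role) from its mean over all libraries, in each of the 18 libraries (columns). The control 24 h columns are low for most members, and the control 48 h columns are high for most.

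With thrombin for 24 h, 20 of the 40 genes rose and none fell, against 9.05% of all tested genes that rose and 8.54% that fell. The median fold change of the members was 0.25 and that of all tested genes 0.0017. The 20 were CCNA2, CCNB1, AURKA, BUB1, BUB1B, BUB3, TTK, CENPE, CENPF, KIF4A, TPX2, DLGAP5, KIF14, KIF20A, KIF23, PRC1, ANLN, ECT2, TOP2A and MKI67, with fold changes from 0.21 (PRC1) to 0.58 (ANLN). The changes were small: none of the 40 reached a 2-fold change. In 20 members all 3 thrombin libraries lay above all 3 control libraries and in none below, against 17.1% and 17% of all tested genes. PLK1, KIF2C, BIRC5 and FOXM1 were among these 20 without passing the test, and CENPE, CENPF, DLGAP5 and TOP2A passed it although their groups overlapped. Within each number the members were mostly higher with thrombin: 36 of 40 in libraries 12, 35 in libraries 13 and 38 in libraries 14. Their median differences were 0.32, 0.12 and 0.24, and 50.5%, 49.9% and 49.7% of all tested genes were higher. The labels do not say whether the numbers pair the libraries.

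The calls at 24 h rested on few libraries. Without thrombin library 12, 8 members rose, without thrombin library 14 it was 6, without control library 12 it was 6 and without control library 13 it was 8, whereas leaving out thrombin library 13 gave 21. The share of all tested genes that rose was 7.97%, 6.29%, 5.91% and 6.19% in the first 4 of these fits and 8.36% in the last. ANLN, BUB1, CCNA2, KIF20A and KIF23 rose in each of the 6 fits that left out 1 of the 24 h libraries. KIF4A rose in 5 of them and MKI67 in none. Without the 6 libraries numbered 12, 11 members rose (8.74% of all tested genes rose), 7 of them among the 20: ANLN, BUB1, BUB3, CCNA2, KIF20A, KIF23 and KIF4A. BIRC5, CDC20, FOXM1 and PLK1 were the other 4. Other measures moved with the same groups. TMM factors at 24 h were 0.945 to 0.962 in thrombin and 1.02 to 1.03 in control libraries, and the 20 calls were the same number with DESeq2-style (RLE) factors. The summed level of the 12 stellate and mesenchymal markers was 6648 to 7180 CPM in thrombin and 7313 to 7604 CPM in control libraries at 4 h, 7419 to 7965 CPM in thrombin and 6379 to 6901 CPM in control libraries at 24 h, and 6534 to 6949 CPM in thrombin and 6967 to 7208 CPM in control libraries at 48 h. Those of the hepatocyte, endothelial, macrophage and cholangiocyte lists overlapped between thrombin and control at 24 h. At 4 h the endothelial sums did not overlap (22.8 to 25.2 CPM in thrombin and 25.5 to 30.9 CPM in control libraries), and at 48 h the macrophage sums did not (79.8 to 89.5 CPM in thrombin and 69.7 to 78.1 CPM in control libraries). The part of these measures in the result was not tested.

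At 4 h, 2 of the 40 genes fell and none rose, against 5.52% of all tested genes that fell and 6.29% that rose, so the share of members called was close to the background. The median fold change was -0.10, against -0.00083 for all tested genes, and 29 members had a negative value. HMMR, a spindle protein also known as the hyaluronan-mediated motility receptor, averaged 106 ± 11.8 CPM in thrombin and 136 ± 8.67 CPM in control libraries (SD, n = 3 each; -0.36 ± 0.10, adjusted p = 0.0164 by edgeR). BUB3, a checkpoint adaptor at the kinetochore, averaged 191 ± 18.3 CPM in thrombin and 235 ± 10.1 CPM in control libraries (-0.30 ± 0.093, adjusted p = 0.0327 by edgeR). The thrombin libraries lay wholly below the controls for 4 members (AURKB, BUB3, HMMR and KIF23) and above for none, against 12.4% and 13.4% of all tested genes. Leaving out thrombin library 12 gave 8 members that fell and 2 that rose, where 7.32% and 8.32% of all tested genes did. Leaving out thrombin library 13, thrombin library 14 or control library 14 gave none. Leaving out control library 12 gave 3 that fell and 1 that rose, where 6.17% and 6.25% of all tested genes did. Leaving out control library 13 gave 1 that fell, where 3.02% of all tested genes did. Without the 6 libraries numbered 12, 11 members fell and 1 rose, against 11.7% and 11.5% of all tested genes: ANLN fell by 0.46, HMMR by 0.43 and BUB3 by 0.41 on the log2 scale, and CENPA, the centromeric histone H3 variant, rose by 0.40 (adjusted p = 0.00262 by edgeR).

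At 48 h no member passed the test, and by edgeR no gene of the 15353 did. At an unadjusted p under 0.05 there were 26 members and 1110 genes, DESeq2 called 14 genes and no member, and edgeR with no filter on low counts called 50 genes, 4 members among them. All 40 members had a negative fold change, with a median of -0.23 against 0.0089 for all tested genes and a range from -0.36 (NDC80) to -0.035 (CDC25B). In 27 members the 3 thrombin libraries lay below the 3 controls and in none above, against 6.96% and 7.28% of all tested genes. The members were lower with thrombin in 35 of 40 cases in libraries 12, in 38 in libraries 13 and in 37 in libraries 14. There, 50.2%, 50.1% and 51.6% of all tested genes were higher with thrombin.

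**Figure D3:**
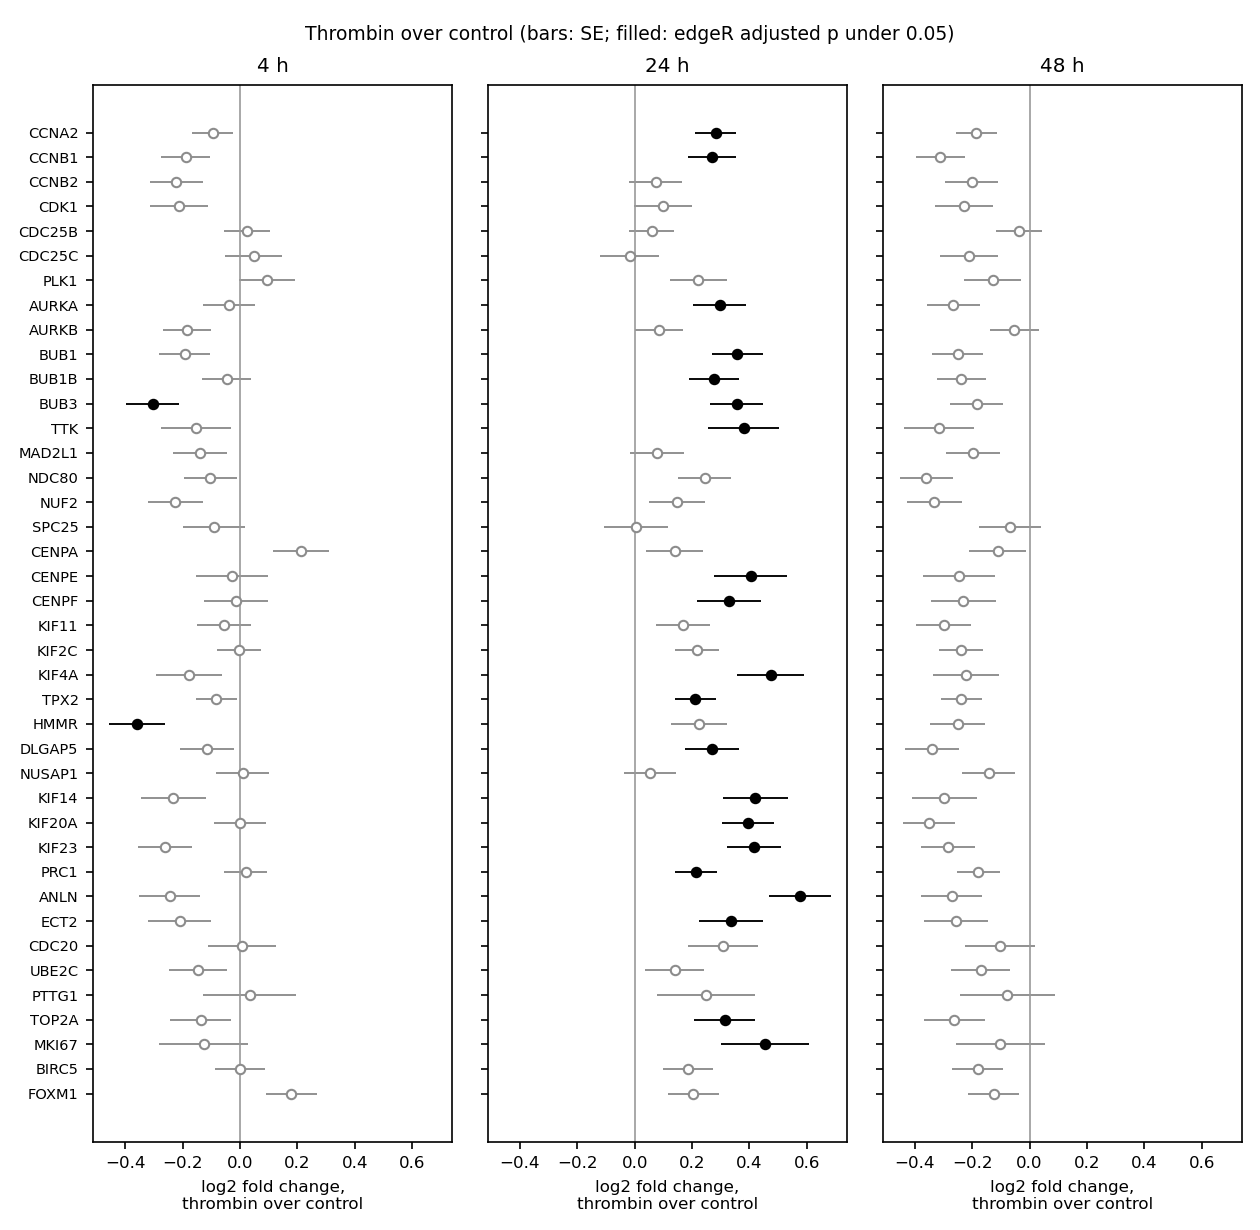
Log2 fold change of thrombin over control with its standard error for each of the 40 members (rows, by role) at 4, 24 and 48 h, with filled symbols for edgeR adjusted p under 0.05. The 20 filled symbols at 24 h lie between 0.21 and 0.58, and at 48 h all 40 open symbols lie below 0.

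Of the 6 cyclins, CDK1 and CDC25 phosphatases, CCNA2 and CCNB1 rose with thrombin at 24 h and the other 4 did not pass the test. All p-values in the accounts by role are edgeR adjusted p over all tested genes. CCNB1 encodes cyclin B1, the cyclin that takes CDK1 into mitosis. CCNB1 measured 373, 397 and 323 CPM in thrombin and 445, 386 and 415 CPM in control libraries at 4 h. CCNB1 values at 24 h were 409, 355 and 417 CPM in thrombin and 326, 318 and 334 CPM in control libraries. CCNB1 values at 48 h were 310.2, 339 and 334 CPM in thrombin and 387, 404 and 429.6 CPM in control libraries. The groups overlapped at 4 h. At 24 h all 3 thrombin libraries were above the controls, and at 48 h all 3 were below. The CCNB1 fold change was -0.19 ± 0.085 at 4 h (adjusted p = 0.151), 0.27 ± 0.085 at 24 h (adjusted p = 0.0281) and -0.31 ± 0.085 at 48 h (adjusted p = 0.371). CCNA2 encodes cyclin A2, which acts in S phase and in early mitosis. CCNA2 measured 154, 164 and 147 CPM in thrombin and 163, 159 and 175 CPM in control libraries at 4 h. CCNA2 values at 24 h were 161, 157 and 164 CPM in thrombin and 129, 139 and 129 CPM in control libraries. CCNA2 values at 48 h were 144, 141 and 139.7 CPM in thrombin and 158, 168 and 157 CPM in control libraries. CCNA2 overlapped between groups at 4 h. At 24 h, where control values were lowest, thrombin was above, and at 48 h it was below. The CCNA2 fold change was -0.094 ± 0.071 at 4 h (adjusted p = 0.429), 0.28 ± 0.072 at 24 h (adjusted p = 0.00702) and -0.19 ± 0.072 at 48 h (adjusted p = 0.598). CDK1 is the kinase that both cyclins activate. CDK1 measured 150.3, 129 and 108 CPM in thrombin and 163, 144 and 141 CPM in control libraries at 4 h. CDK1 values at 24 h were 149.9, 127 and 137 CPM in thrombin and 125, 125 and 136 CPM in control libraries. CDK1 values at 48 h were 118, 137 and 144 CPM in thrombin and 162, 148 and 157 CPM in control libraries. The groups overlapped at 4 and at 24 h, and separated at 48 h with thrombin below. The CDK1 fold change was -0.21 ± 0.10 at 4 h (adjusted p = 0.18), 0.10 ± 0.10 at 24 h (adjusted p = 0.54) and -0.23 ± 0.10 at 48 h (adjusted p = 0.648). CCNB2, the other B-type cyclin, averaged 51.6 ± 2.85 CPM in thrombin and 49.1 ± 1.12 CPM in control libraries at 24 h, with a fold change of 0.073 ± 0.093. CDC25B, which starts CDK1 activation at the centrosome, and CDC25C, which completes it, had fold changes of 0.059 ± 0.08 and -0.017 ± 0.10 at 24 h, the smallest of the group, and CDC25C was the only member of the 40 below 0 there.

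Of the 3 mitotic kinases, AURKA rose at 24 h, and AURKB and PLK1 did not pass the test. AURKA builds spindle poles together with TPX2. AURKA measured 109, 122 and 105 CPM in thrombin and 126, 99.3 and 121 CPM in control libraries at 4 h. AURKA values at 24 h were 124, 106 and 124 CPM in thrombin and 95.8, 96.2 and 96.5 CPM in control libraries. AURKA values at 48 h were 95.2, 104 and 105 CPM in thrombin and 112, 126 and 128 CPM in control libraries. The control values at 24 h were within 1 CPM of each other and below all thrombin values, and at 48 h the order was the other way round. The AURKA fold change was -0.039 ± 0.092 at 4 h (adjusted p = 0.833), 0.30 ± 0.093 at 24 h (adjusted p = 0.0268) and -0.27 ± 0.092 at 48 h (adjusted p = 0.554). Leaving out 1 library of the 24 h groups kept the AURKA call in 1 of 6 fits. AURKB is the kinase of the chromosomal passenger complex. AURKB measured 111, 121 and 119 CPM in thrombin and 149, 125 and 126 CPM in control libraries at 4 h. AURKB values at 24 h were 108, 123 and 121 CPM in thrombin and 110.1, 116 and 106 CPM in control libraries. AURKB values at 48 h were 113, 95.1 and 101 CPM in thrombin and 106, 108 and 107 CPM in control libraries. Control library 12 at 4 h was the highest of the 18, and the groups separated at 4 h only, with thrombin below. The AURKB fold change was -0.19 ± 0.084 at 4 h (adjusted p = 0.157), 0.085 ± 0.085 at 24 h (adjusted p = 0.532) and -0.053 ± 0.085 at 48 h (adjusted p = 0.913). PLK1 acts from mitotic entry to cytokinesis. PLK1 measured 121, 163 and 155 CPM in thrombin and 139.8, 130.4 and 139.5 CPM in control libraries at 4 h. PLK1 values at 24 h were 128, 145 and 135 CPM in thrombin and 122, 123 and 105 CPM in control libraries. PLK1 values at 48 h were 117, 109 and 105 CPM in thrombin and 109.7, 132 and 119.9 CPM in control libraries. All 3 thrombin libraries were above the controls at 24 h, and the groups overlapped at 4 and 48 h. Library 12 was the lowest of the thrombin libraries at 4 and at 24 h. The PLK1 fold change was 0.10 ± 0.10 at 4 h (adjusted p = 0.579), 0.22 ± 0.10 at 24 h (adjusted p = 0.125) and -0.13 ± 0.10 at 48 h (adjusted p = 0.794). PLK1 was called at 24 h without the libraries numbered 12.

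Of the 5 checkpoint genes, BUB1, BUB1B, BUB3 and TTK rose at 24 h and MAD2L1 did not pass the test. BUB1 is the kinetochore kinase that recruits the other checkpoint proteins. BUB1 measured 169, 149 and 135 CPM in thrombin and 168, 167 and 182 CPM in control libraries at 4 h. BUB1 values at 24 h were 186, 158 and 172 CPM in thrombin and 131, 127 and 145 CPM in control libraries. BUB1 values at 48 h were 138, 154 and 159 CPM in thrombin and 179, 188 and 169 CPM in control libraries. The groups overlapped at 4 h, separated at 24 h with thrombin above and separated at 48 h with thrombin below. The BUB1 fold change was -0.19 ± 0.089 at 4 h (adjusted p = 0.166), 0.36 ± 0.09 at 24 h (adjusted p = 0.00599) and -0.25 ± 0.089 at 48 h (adjusted p = 0.561). BUB3 and TTK had fold changes of 0.35 ± 0.093 and 0.38 ± 0.12 at 24 h (adjusted p = 0.00863 and 0.0334). TTK, the kinase MPS1 that starts checkpoint signalling, averaged 93.4 ± 11.3 CPM in thrombin and 71.7 ± 9.08 CPM in control libraries at 24 h and 83.0 ± 12.6 CPM in thrombin and 103 ± 4.41 CPM in control libraries at 48 h. BUB1B, the BUBR1 subunit of the mitotic checkpoint complex, changed by 0.28 ± 0.087 at 24 h (adjusted p = 0.0272). MAD2L1, the MAD2 subunit of that complex, had a fold change of 0.078 ± 0.10 with an adjusted p of 0.624.

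Of the 6 kinetochore and centromere genes, CENPE and CENPF rose at 24 h, and NDC80, NUF2, SPC25 and CENPA did not pass the test. CENPE is a kinesin that carries chromosomes to the spindle equator. CENPE measured 141, 105 and 113 CPM in thrombin and 110.0, 119 and 137 CPM in control libraries at 4 h. CENPE values at 24 h were 146, 109 and 130.2 CPM in thrombin and 81.2, 96.4 and 113 CPM in control libraries. CENPE values at 48 h were 107, 122 and 133 CPM in thrombin and 134, 155 and 139 CPM in control libraries. Control library 12 at 24 h was the lowest and control library 13 at 48 h the highest of the 18. The groups overlapped at 4 and 24 h and separated at 48 h with thrombin below. The CENPE fold change was -0.027 ± 0.13 at 4 h (adjusted p = 0.92), 0.41 ± 0.13 at 24 h (adjusted p = 0.0288) and -0.25 ± 0.13 at 48 h (adjusted p = 0.707). CENPE rose in 2 of 6 fits that left out 1 library. CENPF is a large kinetochore protein that accumulates in G2. CENPF measured 517, 403 and 439.7 CPM in thrombin and 423, 436 and 515 CPM in control libraries at 4 h. CENPF values at 24 h were 541, 422 and 507 CPM in thrombin and 338, 402 and 431 CPM in control libraries. CENPF values at 48 h were 406, 473 and 491 CPM in thrombin and 560.0, 568 and 479 CPM in control libraries. The groups overlapped at all 3 times, with control library 12 lowest at 24 h. The CENPF fold change was -0.015 ± 0.11 at 4 h (adjusted p = 0.951), 0.33 ± 0.11 at 24 h (adjusted p = 0.0433) and -0.23 ± 0.11 at 48 h (adjusted p = 0.688). CENPF rose in 2 of 6 fits that left out 1 library. NDC80, NUF2 and SPC25 are subunits of the complex that binds microtubules at the kinetochore. Their fold changes at 24 h were 0.24 ± 0.092, 0.15 ± 0.10 and 0.0054 ± 0.11, with adjusted p of 0.0689, 0.319 and 0.982. NDC80 had the lowest fold change of the 40 at 48 h, with 106 ± 4.95 CPM in thrombin and 136 ± 4.57 CPM in control libraries. CENPA had the highest fold change of the 40 at 4 h (0.21 ± 0.10, adjusted p = 0.166).

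Of the 7 spindle motors and microtubule proteins, KIF4A, TPX2 and DLGAP5 rose at 24 h, and KIF11, KIF2C, HMMR and NUSAP1 did not pass the test. KIF4A is a chromosome-bound kinesin that also shapes the central spindle. KIF4A measured 40.2, 40.5 and 33.8 CPM in thrombin and 48.7, 38.9 and 42.1 CPM in control libraries at 4 h. KIF4A values at 24 h were 42.8, 37.9 and 49.7 CPM in thrombin and 28.5, 30.7 and 34.8 CPM in control libraries. KIF4A values at 48 h were 30.5, 35.2 and 39.8 CPM in thrombin and 38.2, 42.6 and 42.0 CPM in control libraries. At 24 h all thrombin values were above the controls, and at 4 and 48 h the groups overlapped. The KIF4A fold change was -0.18 ± 0.11 at 4 h (adjusted p = 0.341), 0.47 ± 0.12 at 24 h (adjusted p = 0.00542) and -0.22 ± 0.12 at 48 h (adjusted p = 0.71). TPX2 nucleates spindle microtubules and activates Aurora A. TPX2 measured 459, 461 and 431 CPM in thrombin and 480.3, 451 and 499 CPM in control libraries at 4 h. TPX2 values at 24 h were 508, 450.4 and 494 CPM in thrombin and 413, 418 and 423 CPM in control libraries. TPX2 values at 48 h were 398, 428 and 423 CPM in thrombin and 479.9, 510.3 and 482 CPM in control libraries. The groups overlapped at 4 h, and thrombin was above control in all libraries at 24 h and below in all at 48 h. The TPX2 fold change was -0.082 ± 0.072 at 4 h (adjusted p = 0.503), 0.21 ± 0.072 at 24 h (adjusted p = 0.0419) and -0.24 ± 0.072 at 48 h (adjusted p = 0.428). TPX2 rose in 1 of 6 fits that left out 1 library. KIF4A shares nearly all of its sequence with the intronless copy KIF4B, which is counted in its own row: KIF4A had 426 to 881 counts a library and KIF4B 2123 to 4158. KIF4A and KIF4B summed gave 0.47 ± 0.080 at 24 h (adjusted p = 0.000165) and -0.25 ± 0.080 at 4 h (adjusted p = 0.0407). AURKA, with 1434 to 2421 counts, shares sequence with the pseudogene AURKAP1 (872 to 1607 counts), and the pair summed gave 0.36 ± 0.084 at 24 h (adjusted p = 0.00333). DLGAP5, a microtubule bundling protein, rose by 0.27 at 24 h (adjusted p = 0.0487). KIF11 and KIF2C, motors that push spindle poles apart and take microtubules down, had fold changes of 0.17 ± 0.10 and 0.22 ± 0.076, and KIF2C passed the test by DESeq2. NUSAP1, which binds spindle microtubules near chromosomes, had 0.053 ± 0.092. HMMR measured 122, 102 and 116 CPM in thrombin and 91.3, 92.1 and 108 CPM in control libraries at 24 h, with a fold change of 0.22 ± 0.10 and an adjusted p of 0.116.

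All 6 genes of the central spindle and of cytokinesis rose at 24 h, and in all 6 the thrombin libraries were above the controls at 24 h and below them at 48 h. Their median fold change was 0.41 at 24 h, the highest of the roles with more than 1 gene, and -0.28 at 48 h, where none passed the test. ANLN encodes anillin, the scaffold of the contractile ring. ANLN measured 411, 353 and 314 CPM in thrombin and 360.4, 428 and 490.0 CPM in control libraries at 4 h. ANLN values at 24 h were 517, 430.4 and 482 CPM in thrombin and 297, 316 and 345 CPM in control libraries. ANLN values at 48 h were 344, 391 and 401 CPM in thrombin and 483, 467 and 421 CPM in control libraries. Control library 12 at 24 h was the lowest of the 18 and thrombin library 12 at 24 h the highest. The ANLN fold change was -0.24 ± 0.11 at 4 h (adjusted p = 0.14), 0.58 ± 0.11 at 24 h (adjusted p = 0.000383) and -0.27 ± 0.11 at 48 h (adjusted p = 0.607). ANLN had the largest change of the 40 at 24 h and rose in each of the 6 fits that left out 1 library. KIF23 encodes MKLP1, the kinesin of the centralspindlin complex. KIF23 measured 265, 224 and 208 CPM in thrombin and 269, 273 and 293 CPM in control libraries at 4 h. KIF23 values at 24 h were 308, 246 and 283 CPM in thrombin and 198, 205 and 224 CPM in control libraries. KIF23 values at 48 h were 211, 243 and 241 CPM in thrombin and 294, 288 and 264 CPM in control libraries. KIF23 separated the groups at every time, with thrombin below at 4 h, above at 24 h and below at 48 h. The KIF23 fold change was -0.26 ± 0.093 at 4 h (adjusted p = 0.07), 0.42 ± 0.094 at 24 h (adjusted p = 0.00257) and -0.28 ± 0.094 at 48 h (adjusted p = 0.514). KIF23 fell without the libraries numbered 12, by 0.39 on the log2 scale at 4 h (adjusted p = 0.00183). KIF20A, the kinesin MKLP2 that moves the passenger complex to the central spindle, averaged 248 ± 27.2 CPM in thrombin and 188 ± 10.4 CPM in control libraries at 24 h (0.39 ± 0.091, adjusted p = 0.00306). KIF14, a kinesin bound to PRC1 and citron kinase, averaged 123 ± 17.1 CPM in thrombin and 91.6 ± 9.59 CPM in control libraries (0.42 ± 0.11, adjusted p = 0.0105). ECT2, the exchange factor that activates RhoA at the division plane, averaged 84.3 ± 8.84 CPM in thrombin and 66.7 ± 7.35 CPM in control libraries (0.34 ± 0.11, adjusted p = 0.0369). PRC1, which bundles the antiparallel microtubules of the midzone, had the smallest change of the 20 that rose, 0.21 ± 0.075, adjusted p = 0.0485, and rose in 1 of 6 fits that left out 1 library.

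None of the 3 regulators and substrates of the anaphase-promoting complex passed the test at any of the 3 times. CDC20 is the coactivator that the checkpoint restrains. CDC20 measured 52.6, 68.1 and 74.7 CPM in thrombin and 71.5, 56.9 and 66.2 CPM in control libraries at 4 h. CDC20 values at 24 h were 51.9, 63.4 and 71.8 CPM in thrombin and 55.3, 49.7 and 46.4 CPM in control libraries. CDC20 values at 48 h were 54.6, 49.0 and 50.6 CPM in thrombin and 50.4, 58.7 and 56.4 CPM in control libraries. CDC20 overlapped between groups at all times. Library 12 was the lowest thrombin library at 4 and 24 h and the highest at 48 h. The CDC20 fold change was 0.0074 ± 0.12 at 4 h (adjusted p = 0.979), 0.31 ± 0.12 at 24 h (adjusted p = 0.0849) and -0.10 ± 0.12 at 48 h (adjusted p = 0.879). CDC20 was called at 24 h without the libraries numbered 12. UBE2C, the ubiquitin-conjugating enzyme of the complex, had fold changes of 0.14 ± 0.10 at 24 h and -0.17 ± 0.10 at 48 h. PTTG1, securin, had 0.25 ± 0.17 and -0.077 ± 0.17. PTTG1 is uncertain: it had 147 to 328 counts a library, fewer than its intronless copies PTTG2 (296 to 635) and PTTG3P (721 to 1315), and summed with them it gave 0.11 ± 0.094 at 24 h (adjusted p = 0.471).

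TOP2A and MKI67 rose at 24 h and BIRC5 did not pass the test. TOP2A is the topoisomerase that untangles chromatids. TOP2A measured 1005, 777 and 759.7 CPM in thrombin and 863, 899 and 1033 CPM in control libraries at 4 h. TOP2A values at 24 h were 1074, 832 and 1003 CPM in thrombin and 716, 793 and 832 CPM in control libraries. TOP2A values at 48 h were 782, 879 and 876 CPM in thrombin and 1075, 1045 and 924 CPM in control libraries. Thrombin library 13 at 24 h was just below the highest control, so the groups overlapped there. At 48 h all 3 thrombin libraries were below. The TOP2A fold change was -0.14 ± 0.11 at 4 h (adjusted p = 0.443), 0.31 ± 0.11 at 24 h (adjusted p = 0.0426) and -0.26 ± 0.11 at 48 h (adjusted p = 0.622). TOP2A rose in 2 of 6 fits that left out 1 library. MKI67 encodes Ki-67, the protein used as a marker of cycling cells. MKI67 measured 999.7, 792 and 906 CPM in thrombin and 789, 981 and 1175 CPM in control libraries at 4 h. MKI67 values at 24 h were 1142, 988 and 1049 CPM in thrombin and 777, 794 and 751 CPM in control libraries. MKI67 values at 48 h were 882, 900.1 and 889 CPM in thrombin and 1131, 1079 and 655 CPM in control libraries. At 24 h the 3 thrombin libraries were above the controls. At 4 h the controls spread widely, and control library 14 at 48 h was the lowest of the 18 while the other two controls there were above all thrombin libraries. The MKI67 fold change was -0.13 ± 0.15 at 4 h (adjusted p = 0.654), 0.45 ± 0.15 at 24 h (adjusted p = 0.0483) and -0.10 ± 0.15 at 48 h (adjusted p = 0.907). The MKI67 call at 24 h was lost in each of the 6 fits that left out 1 library (adjusted p = 0.0662 to 0.155). BIRC5, survivin of the chromosomal passenger complex, averaged 293 ± 20.6 CPM in thrombin and 258 ± 16.4 CPM in control libraries at 24 h, with no overlap between the groups (0.18 ± 0.088, adjusted p = 0.154), and it was called without the libraries numbered 12.

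FOXM1, the forkhead factor that activates G2/M genes, did not pass the test at any time. FOXM1 measured 401, 489 and 507 CPM in thrombin and 385, 409.5 and 439 CPM in control libraries at 4 h. FOXM1 values at 24 h were 409.7, 453 and 444 CPM in thrombin and 390.5, 383 and 360.2 CPM in control libraries. FOXM1 values at 48 h were 363, 349 and 356 CPM in thrombin and 375, 434 and 354 CPM in control libraries. The mean of the thrombin libraries was highest at 4 h and lowest at 48 h. At 4 h thrombin library 12 lay within the control range and libraries 13 and 14 above it, and at 24 h all 3 thrombin libraries were above the controls. The FOXM1 fold change was 0.18 ± 0.089 at 4 h (adjusted p = 0.2), 0.20 ± 0.089 at 24 h (adjusted p = 0.118) and -0.12 ± 0.089 at 48 h (adjusted p = 0.781). FOXM1 was called at 24 h without the libraries numbered 12.

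**Figure D4:**
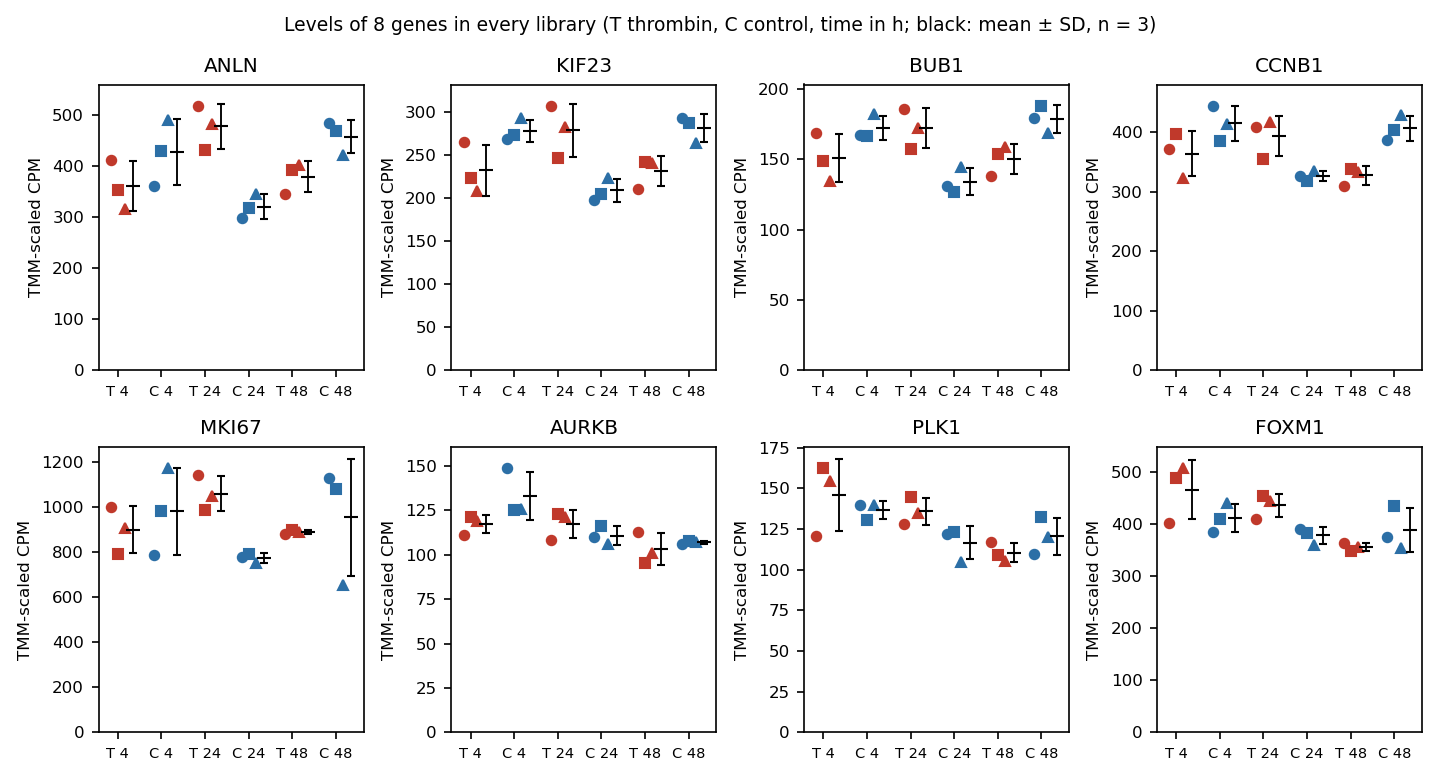
CPM (TMM-scaled, linear axis) of 8 members, ANLN, KIF23, BUB1, CCNB1, MKI67, AURKB, PLK1 and FOXM1, in every library by time, thrombin left of control; circles, squares and triangles are libraries numbered 12, 13 and 14, and bars are the group mean and SD (n = 3). The control mean is lowest at 24 h in all of them except AURKB, where it is lowest at 48 h. AURKB, PLK1 and FOXM1 do not pass the test of thrombin against control at any time.

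The effect of thrombin differed between times for many members. From 4 h to 24 h the difference of the effects (24 h minus 4 h) was positive and passed the test in 17 of 40 members and was negative in none that passed, against 13.6% and 14.3% of all tested genes. The 17 were CCNA2, CCNB1, BUB1, BUB3, TTK, NDC80, NUF2, KIF4A, TPX2, HMMR, DLGAP5, KIF14, KIF20A, KIF23, ANLN, ECT2 and TOP2A. ANLN had the largest difference (0.82 ± 0.15, adjusted p = 0.000221), and KIF23 (0.68 ± 0.13, adjusted p = 0.000419) and BUB3 (0.66 ± 0.13, adjusted p = 0.000509) followed. Leaving out thrombin library 14 at 4 h gave 10 members and leaving out control library 14 at 4 h gave 11. It was 10 without thrombin library 12 at 24 h and 11 without control library 12 at 24 h. In these fits 11.3%, 11.5%, 12.9% and 11% of all tested genes were higher, in the same order. ANLN, BUB1, BUB3, CCNA2, CCNB1, ECT2, HMMR, KIF14, KIF23 and KIF4A passed in each of the 12 fits that left out 1 library. Without the libraries numbered 12, 15 members passed (14.9% of all tested genes were higher), 13 of them among the 17. DLGAP5, NDC80, NUF2 and TPX2 lost the call, and BUB1B and CENPE gained it. CENPA, CDC25C, CDC25B, FOXM1 and NUSAP1 had differences from -0.073 to 0.043.

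The difference of the effects between 48 h and 24 h (48 h minus 24 h) was negative and passed the test in 25 of 40 members and positive in none that passed, against 6.68% and 7.16% of all tested genes. The median difference of the members was -0.47, against 0.0028 for all tested genes. ANLN again had the largest (-0.85 ± 0.15, adjusted p = 0.000403), followed by KIF20A (-0.75 ± 0.13, adjusted p = 0.000258) and KIF14 (-0.72 ± 0.16, adjusted p = 0.00324). Of the 25, 19 passed in each of the 12 fits that left out 1 library, among them CCNB1, CCNA2, AURKA, BUB1, TTK, TPX2, TOP2A and all 6 genes of the midzone and cytokinesis. Without the libraries numbered 12 it was also 19 members (5.09% of all tested genes were lower), 16 of them among the 25. SPC25, CDC25B, AURKB, CDC25C and NUSAP1 had the smallest differences, -0.20 to -0.074, and were not called. The 48 h effect minus the 4 h effect passed the test in no member by edgeR, where 0.475% of all tested genes were called higher and 0.156% lower. At an unadjusted p under 0.05 there were 4 members, and DESeq2 called none. Without the libraries numbered 12, BIRC5, CENPA and PLK1 were called lower, where 3.45% of all tested genes were lower and 3.87% higher.

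Both effects share the 24 h libraries, and the levels over time show how each arm moved. In control cells, 18 of 40 members were lower at 24 h than at 4 h and none was higher, against 7.15% and 8.1% of all tested genes. BUB3 and HMMR fell most (-0.48 ± 0.10, adjusted p = 0.0012 for HMMR and -0.47 ± 0.093, adjusted p = 0.00109 for BUB3), and KIF4A, ANLN and KIF23 fell by 0.46, 0.41 and 0.41 on the log2 scale. All 40 values were negative, while 48.9% of all tested genes had a positive value. Leaving out control library 12 at 24 h gave 7 members, control library 13 at 24 h 9 and control library 14 at 4 h 10. Of all tested genes, 3.82%, 4.22% and 4.69% fell in these fits, in the same order. BUB3, CCNA2, CCNB1, HMMR and KIF23 fell in each of the 6 fits. Without the libraries numbered 12, 11 members fell (7.17% of all tested genes fell), all of them among the 18.

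Control cells at 48 h against 24 h showed 21 members higher and none lower, against 2.69% and 3.43% of all tested genes. CENPE (0.56 ± 0.13, adjusted p = 0.011), ANLN (0.52 ± 0.11, adjusted p = 0.00553) and TTK (0.52 ± 0.12, adjusted p = 0.0128) rose most, and CDC25B had the lowest value, -0.19 ± 0.08. This count depended on single libraries, and so did the share of all tested genes that rose. Without control library 12 at 24 h it was 2 members (0.599% of all tested genes) and without control library 13 at 24 h 5 (0.743%). Without control library 13 at 48 h it was 7 (1.19%) and without control library 12 at 48 h 9 (0.847%). DLGAP5 and KIF20A rose in each of the 6 fits. Without all libraries numbered 12 it was 13 members (1.1% of all tested genes rose), all among the 21.

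Few members were called between neighbouring times in thrombin cells. At 24 h against 4 h only ANLN rose (0.41 ± 0.11, adjusted p = 0.0102) and none fell, against 7.85% and 7.28% of all tested genes. ANLN averaged 477 ± 43.7 CPM at 24 h and 359.6 ± 48.9 CPM at 4 h (SD, n = 3 each). ANLN lost this call without thrombin library 14 at 4 h or thrombin library 12 at 24 h. Leaving out thrombin library 12 at 4 h gave 7 members that rose (9.63% of all tested genes). Leaving out thrombin library 13 at 24 h gave 3 (7.19%). Without the libraries numbered 12, BUB3, ECT2 and KIF23 rose as well, where 9.88% of all tested genes rose. At 48 h against 24 h, CCNB1, CDC25B, KIF20A, ANLN and FOXM1 fell and none rose, against 5.41% and 4.31% of all tested genes. FOXM1 averaged 356 ± 7.19 CPM at 48 h and 435 ± 22.7 CPM at 24 h (-0.29 ± 0.089, adjusted p = 0.0377), and CCNB1 328 ± 15.5 CPM at 48 h and 393 ± 33.8 CPM at 24 h (-0.26 ± 0.085, adjusted p = 0.0486). Leaving out the libraries numbered 12 gave 6 members that fell (7.34% of all tested genes fell), with 2 of the 5, CDC25B and FOXM1, among them. ANLN, CCNB1 and KIF20A lost the call, and AURKB, BIRC5, CDC20 and PLK1 gained it. With the number as a replicate block, ANLN and CCNB1 lost the call and the other 3 kept it. Leaving out 1 library gave 0 members without thrombin library 14 at 24 h or libraries 13 or 14 at 48 h. It gave 3 without thrombin library 12 at 24 h and 2 without thrombin library 12 at 48 h. The shares of all tested genes that fell were 3.72%, 3.35%, 3.92%, 5.24% and 4.01%, in the same order. Whether the change over time differed between thrombin and control cells is the same test as the difference of the effects above.

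The members of thrombin 4 h and control 24 h libraries, the groups that differed in few genes, were compared directly. No member was called by edgeR, where 0.0195% of all tested genes were higher and 0.0521% lower, although 15 members had an unadjusted p under 0.05, and DESeq2 called none. All 40 fold changes were positive, from 0.0085 for CDK1 to 0.37 for CDC20, against 50.9% of all tested genes. The median was 0.17 for the members and 0.0025 for all tested genes. Without the libraries numbered 12, CDC20, FOXM1 and PLK1 were higher in thrombin 4 h libraries, as were 0.326% of all tested genes. The median of the members was then 0.08.

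Other genes of the same machinery were read from lists that do not overlap the 40. Their counts at 24 h stand against the 9.05% of all tested genes that rose and 8.54% that fell, and those at 4 h against 6.29% and 5.52%. Of 55 further mitotic genes, 18 rose and none fell with thrombin at 24 h, with a median of 0.19. TRIP13, the ATPase that disassembles the checkpoint complex, averaged 255 ± 9.64 CPM in thrombin and 188 ± 4.76 CPM in control libraries at 24 h, a change of 0.44 ± 0.07 (adjusted p = 6.2e-05). CKAP2L, a spindle protein, changed by 0.59 ± 0.11 (adjusted p = 0.000271), CCNF, cyclin F, by 0.43 ± 0.076 (adjusted p = 0.000212) and HJURP, the chaperone of CENPA, by 0.34 ± 0.068 (adjusted p = 0.000922). At 4 h TRIP13 changed by -0.28 ± 0.069 (adjusted p = 0.00863), CKAP2L by -0.39 ± 0.11 (adjusted p = 0.0165) and KPNA2, an importin, by -0.28 ± 0.09 (adjusted p = 0.0453), and PIMREG rose (0.43 ± 0.10 with an adjusted p = 0.00436). None of the 55 passed the test at 48 h, where the median was -0.17. Of the 47 with a promoter in the RefSeq table, 34 (72.3%) held TTTGAA or TTCGAA.

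Among 17 genes of the DREAM and MuvB complexes, pocket proteins and NF-Y, MYBL1 and MYBL2 rose at 24 h and LIN52 and TFDP2 fell. MYBL2, B-MYB, averaged 257 ± 26.3 CPM in thrombin and 342 ± 19.0 CPM in control libraries at 4 h, 379.7 ± 36.5 CPM in thrombin and 256 ± 18.2 CPM in control libraries at 24 h and 245 ± 31.6 CPM in thrombin and 249.7 ± 20.7 CPM in control libraries at 48 h. MYBL2 changed by -0.41 ± 0.10 (adjusted p = 0.00687) at 4 h and 0.57 ± 0.10 (adjusted p = 0.000159) at 24 h, and MYBL1, A-MYB, by -0.38 ± 0.10 (adjusted p = 0.0113) and 0.71 ± 0.10 (adjusted p = 9.37e-06). Both had negative calls at 4 h and positive calls at 24 h, and the difference of the effects was 0.98 ± 0.14 (adjusted p = 7.57e-06) for MYBL2 and 1.10 ± 0.14 (adjusted p = 1.7e-06) for MYBL1. LIN52, a MuvB subunit, changed by -0.39 ± 0.10 (adjusted p = 0.00597) and TFDP2, an E2F partner, by -0.27 ± 0.088 (adjusted p = 0.0349) at 24 h. TFDP2 had the opposite call at 4 h (0.30 ± 0.087, adjusted p = 0.0245 by edgeR). The effect at 24 h minus that at 4 h was -0.57 ± 0.12 (adjusted p = 0.00116) for TFDP2 and -0.58 ± 0.13 (adjusted p = 0.0022) for LIN52 by edgeR.

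Among 12 brakes on CDK1 and on the cell cycle, 3 rose and 4 fell at 24 h. CDKN1A, the inhibitor p21, averaged 54.2 ± 7.35 CPM in thrombin and 84.7 ± 4.22 CPM in control libraries at 24 h, a change of -0.64 ± 0.11 (adjusted p = 8.68e-05). BTG2, an antiproliferative gene, changed by -0.95 ± 0.18 (adjusted p = 0.0005), CDKN1C, p57, by -0.77 ± 0.23 (adjusted p = 0.0204) and CDKN2B, p15, by -0.35 ± 0.10 (adjusted p = 0.0149). The 3 that rose were GADD45B (0.72 ± 0.10 with an adjusted p = 1.88e-05), CDKN1B, p27 (0.25 ± 0.076 with an adjusted p = 0.0216) and PKMYT1 (0.29 ± 0.094 with an adjusted p = 0.0338), the kinase that holds CDK1 inactive at membranes. At 4 h 2 of the 12 fell and none rose: CDKN2B changed by -0.37 ± 0.096 (adjusted p = 0.013) and GADD45B by -0.37 ± 0.10 (adjusted p = 0.0213), and GADD45B thus had calls of opposite sign at 4 and 24 h. CDKN1A was at -0.017 ± 0.10 at 4 h (adjusted p = 0.939), and its effect at 24 h minus that at 4 h was -0.63 ± 0.15 (adjusted p = 0.00244). WEE1, the nuclear kinase that holds CDK1 inactive, was at -0.033 ± 0.077 (adjusted p = 0.811) at 24 h. The 15 core subunits of the anaphase-promoting complex gave no call at 24 h, with a median of 0.044 and 1 at an unadjusted p under 0.05.

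Of 34 genes of G1/S and DNA replication, 7 rose and none fell at 24 h, with a median of 0.14. EXO1, an exonuclease of repair and replication, changed by 0.63 ± 0.10 (adjusted p = 7.28e-05), UHRF1, which copies DNA methylation, by 0.36 ± 0.07 (adjusted p = 0.000622), CLSPN, the replication checkpoint adaptor claspin, by 0.54 ± 0.11 (adjusted p = 0.000747) and MCM10, an initiation factor, by 0.32 ± 0.10 (adjusted p = 0.026). At 4 h 3 of the 34 fell and none rose.

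Members with longer transcripts had higher fold changes at 24 h. Across the 40 genes, which share the 6 libraries of that comparison, Spearman's rho between the length of the longest coding transcript and the fold change was 0.583 at 24 h, against 0.137 across 13265 tested genes with a length. Of the 20 longest members, 3201 to 12678 bases, 16 rose at 24 h, with a median of 0.35. Of the 20 shortest, 914 to 3102 bases, 4 rose, with a median of 0.20. The same rho was 0.559 for control cells at 48 h against 24 h, 0.704 for thrombin cells at 24 h against 4 h, -0.206 for control cells at 24 h against 4 h, and -0.231 and -0.279 for thrombin against control at 4 and 48 h. The shortest members were UBE2C, PTTG1, AURKB and SPC25, at 914, 1070, 1254 and 1354 bases. Their fold changes at 24 h were 0.14, 0.25, 0.085 and 0.0054. MKI67, CENPF and CENPE, the 3 longest, had 0.45, 0.33 and 0.41. Whether transcript length has a part in which members were called was not tested.

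**Figure D5:**
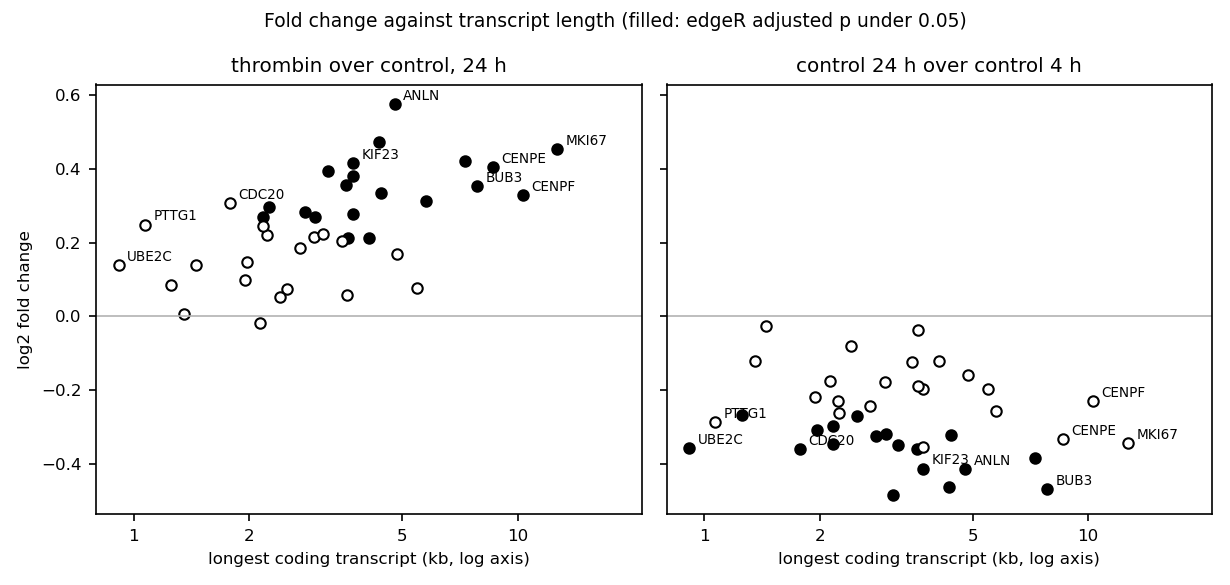
Log2 fold change (vertical axis) against the length of the longest coding transcript in GENCODE v29 (log axis) for the 40 members. The left panel is thrombin over control at 24 h and the right panel control 24 h over control 4 h. Filled points passed the test by edgeR, and all of them rose at left and fell at right. Of the 20 longest members 16 are filled at left and 8 at right, and of the 20 shortest 4 and 10.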

How the data were processed

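Poly(A)-enriched RNA of LX-2 cells was measured in 18 libraries. The values are raw counts per gene symbol as deposited by the authors, and all 18 columns matched a sample's title (0 did not). Per the submitters' processing notes, the tools were cutadapt 4.9, Bowtie2 2.5.4, SAMtools 1.21 and DESeq2 with build GRCh38 (hg38). The roles of the tools, the counter, the annotation and any use of strand are not given in the sources used here. Reads shared between a member and a near-identical copy could therefore be split, as in KIF4A, PTTG1, AURKA and UBE2C. Members with pseudogenes that have no row in the table could not be checked.

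From these counts, genes were filtered with edgeR's filterByExpr (minimum count 10, minimum total 15), which kept 15353 of 28278, and no pair of libraries held identical counts. TMM factors, edgeR 4.0.16 (R 4.3.3, limma 3.58.1) quasi-likelihood fits with 1 mean per group and robust dispersion, and Benjamini-Hochberg adjustment over all tested genes followed, two-sided, with 0.05 as threshold. The script was tested on simulated data. Log2 CPM used a prior count of 2. The standard error is the absolute log2 fold change over the square root of F. Library totals were 14431044 to 23270601 counts, which sets the counting precision. Alternatives were RLE factors, DESeq2 1.42.0, no filter, only the groups compared, a replicate block, no libraries numbered 12, each library left out, and summing of near-identical copies.

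The 40 members, the companion and marker lists and the rules were chosen with earlier results of these data known. Values in every library are given for CCNB1, CDK1, PLK1, AURKB, CENPF, TOP2A, MKI67 and FOXM1 and, per role, for the member with the smallest p at 24 h (2 for roles of 6 or more), and the others are given by mean, range or count. Companion genes named are up to 4 called genes of a list with the smallest adjusted p in a comparison. CDKN1B, CDKN1C, PKMYT1, WEE1 and other companions outside that rule were named after their values were seen. Promoters and coordinates are from RefSeq (GRCh38.p14), transcript lengths from GENCODE v29.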

Additional observations from a re-analysis of the deposited data

Results flagged for a closer look

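The results listed here differed in the effect of thrombin between 2 times, by the edgeR test of that difference over all 15353 genes. Each value is a difference of 2 log2 fold changes. These differences share the libraries of 24 h, so the first and the second set are not independent of each other, and no explanation was weighed.

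For the effect at 24 h minus the effect at 4 h, 17 members had a positive difference. Among the cyclins these were CCNA2 (0.38) and CCNB1 (0.46). Checkpoint genes were BUB1 (0.55), BUB3 (0.66) and TTK (0.53). Kinetochore genes were NDC80 (0.35) and NUF2 (0.37). Spindle motors and microtubule proteins were KIF4A (0.65), TPX2 (0.29), HMMR (0.58) and DLGAP5 (0.38). Genes of the midzone and cytokinesis were KIF14 (0.65), KIF20A (0.39), KIF23 (0.68), ANLN (0.82) and ECT2 (0.55). TOP2A had 0.45.

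For the effect at 48 h minus the effect at 24 h, 25 members had a negative difference. The cyclins were CCNA2 (-0.47) and CCNB1 (-0.58), and the kinase AURKA had -0.56. Checkpoint genes were BUB1 (-0.61), BUB1B (-0.51), BUB3 (-0.54) and TTK (-0.69). Kinetochore genes were NDC80 (-0.60), NUF2 (-0.48), CENPE (-0.65) and CENPF (-0.56). Spindle motors and microtubule proteins were KIF11 (-0.47), KIF2C (-0.45), KIF4A (-0.70), TPX2 (-0.45), HMMR (-0.48) and DLGAP5 (-0.61). Genes of the midzone and cytokinesis were KIF14 (-0.72), KIF20A (-0.75), KIF23 (-0.70), PRC1 (-0.39), ANLN (-0.85) and ECT2 (-0.59). TOP2A had -0.58 and BIRC5 -0.37.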

How the results depend on the processing

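All counts here are edgeR or DESeq2 calls at an adjusted p under 0.05. With RLE factors in place of TMM every count of members stayed within 1.5 times that of the report. Of 6440 values of single members under an alternative, 151 gained and 336 lost a call. In 230 the sign differed from that reported, none of them called under either fit. Without the 6 libraries numbered 12, thrombin against control gave 11 members lower and 1 higher at 4 h (3565 genes called in all), 11 higher at 24 h and 5 genes of any kind at 48 h. The effect at 48 h minus 4 h then gave 3 members lower and 1124 genes, control 24 h against 4 h 11 members lower, control 48 h against 24 h 13 members higher and 346 genes, thrombin 24 h against 4 h 4 members higher, and thrombin 4 h against control 24 h 3 members higher, 75 genes and a median of 0.082. With no filter on low counts, 4 members were lower at 4 h, 4 were lower at 48 h (50 genes), the effect at 48 h minus 4 h gave 381 genes, control 48 h against 24 h 1524 genes, thrombin 24 h against 4 h 2 members higher, thrombin 48 h against 24 h 10 members lower, and thrombin 4 h against control 24 h 1 member higher and 68 genes. DESeq2 gave 14 genes at 48 h, 223 for the effect at 48 h minus 4 h, 2 members higher for thrombin 24 h against 4 h, 8 lower for thrombin 48 h against 24 h and 29 genes for thrombin 4 h against control 24 h. A fit to only the libraries of the groups compared gave 1 member lower at 4 h, 4 genes at 48 h and 1583 genes for control 48 h against 24 h. Summing members with their near-identical copies, an alternative chosen after seeing the data, gave 2 members higher for thrombin 24 h against 4 h. The cause of these changes was not tested, except that fewer libraries entered some fits.

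No clear pairing of the libraries by the numbers 12, 13 and 14 was seen. Same-number thrombin and control libraries had correlations of their deviations from the group means from -0.0931 to 0.0574 across genes. Of 9 thrombin libraries, 2 correlated best with the control of their own number. With 3 libraries a group, low correlations cannot show that the numbers stand for no shared culture. Over all 15 pairs of groups, same-number correlations reached 0.275 for number 12, 0.096 for number 13 and 0.194 for number 14, with medians of -0.0286, 0.000633 and 0.0574. With the number as a replicate block, 17 members rose at 24 h, 2 fell at 4 h and 1 gene was called at 48 h. The effect at 48 h minus 4 h gave 163 genes, thrombin 48 h against 24 h 3 members lower and thrombin 4 h against control 24 h 21 genes.

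Leaving out 1 library at a time gave the following ranges. At 4 h, 0 to 2 members were higher and 0 to 8 lower, with medians of -0.16 to -0.049 and 844 to 2401 genes called. At 24 h, 6 to 21 were higher and none lower, with medians of 0.21 to 0.30 and 1738 to 2501 genes. At 48 h, 0 members were called, with medians of -0.26 to -0.18 and 0 to 1 genes. The effect at 24 h minus 4 h gave 10 to 21 members higher, medians of 0.28 to 0.38 and 3486 to 4704 genes. The effect at 48 h minus 24 h gave 19 to 26 members lower, medians of -0.55 to -0.45 and 1478 to 2270 genes, and that at 48 h minus 4 h no member, medians of -0.17 to -0.09 and 41 to 295 genes. Control 24 h against 4 h gave 7 to 16 members lower, medians of -0.31 to -0.25 and 1296 to 2323 genes, and control 48 h against 24 h 2 to 21 higher, medians of 0.28 to 0.33 and 213 to 1130 genes. Thrombin 24 h against 4 h gave 0 to 7 higher, medians of 0.018 to 0.14 and 1382 to 2978 genes, and thrombin 48 h against 24 h 0 to 7 lower, medians of -0.24 to -0.15 and 888 to 1397 genes. Thrombin 4 h against control 24 h gave 0 members, medians of 0.11 to 0.23 and 0 to 7 genes. The lowest member, PTTG1, had at least 147 counts in every library, and 3 libraries a group limit the precision.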

Other observations

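Some of the brakes on the cell cycle also changed over time in control cells. CDKN1A averaged 70.6 ± 11.1 CPM at 4 h, 54.2 ± 7.35 CPM at 24 h and 71.1 ± 3.10 CPM at 48 h in thrombin libraries, and 71.4 ± 6.00, 84.7 ± 4.22 and 50.4 ± 3.24 CPM at the same times in control libraries (SD, n = 3 each). In control cells at 48 h against 24 h, CDKN1A changed by -0.75 ± 0.11 (adjusted p = 0.000148), BTG2 by -0.74 ± 0.17 (adjusted p = 0.0128) and CDKN2B by -0.35 ± 0.10 (adjusted p = 0.0346) by edgeR, all lower at 48 h, while GADD45B, a stress-induced regulator of growth arrest, rose by 0.35 ± 0.10 (adjusted p = 0.043). The effect of thrombin at 48 h minus that at 24 h was 1.14 ± 0.15 (adjusted p = 7.79e-06) for CDKN1A, 1.27 ± 0.25 (adjusted p = 0.00124) for BTG2 and 0.60 ± 0.14 (adjusted p = 0.0049) for CDKN2B by edgeR, and -0.76 ± 0.15 (adjusted p = 0.00087) for GADD45B. Any relation of these genes to the mitotic genes was not tested.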
